A study of Glycine max with 6 samples.

Results

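Maturity gene E1 and its close relatives E1La and E1Lb were examined in leaves of the soybean (Glycine max) cultivar BR16 at 80 and 20 days after germination (DAG). The members were chosen by gene identifier: Glyma.06G207800 (E1), Glyma.04G156400 (E1La) and Glyma.04G143300 (E1Lb). All 3 had a row in the count table, out of 56044 genes. RNA-seq libraries were compared for 3 samples of 80 DAG leaves, at reproductive stage R7, and 3 samples of 20 DAG leaves, at vegetative stage V3. All plants were wild-type BR16 grown in pots of soil in a greenhouse, and the tissue was leaf disks cut from middle leaflets, of the third trifoliate leaf and of the seventh. The study describes the replicates as biological triplicates. Age, stage and possibly leaf position differ together between the groups and cannot be told apart. The submitters' labels call both ages vegetative, whereas the study's methods give the stages used here. The hour of sampling of these plants is not given in the sources used here, and the study's methods state a light period only for plants of another cultivar, Conquista, used in its stress treatments.

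E1 encodes a nuclear protein found in legumes, with a region distantly related to the plant B3 DNA-binding domain. It acts as a repressor of flowering. In soybean leaves under long days, phytochrome A signalling keeps E1 active, and E1 in turn holds down the florigen genes FT2a and FT5a, whose products move from the leaf to the shoot tip. Weak or lost alleles of E1 bring flowering forward, and variation at the locus is a main source of maturity differences among cultivars. E1La and E1Lb are homologues that repress the same florigen genes. E1 mRNA is also known to rise and fall with the time of day.

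The RefSeq gene table of soybean assembly Glycine_max_v4.0 lists 3 of 3 members by symbol. E1 lies on chromosome 6 and E1LA and E1LB lie on chromosome 4, each as a protein-coding gene with 1 transcript. The synonyms of E1 in that table are e1-as, e1-fs and e1-re, the names of variant alleles. The allele that BR16 carries was not analysed here. No other gene of the table overlapped a member, 0 for each of the 3. The deposited counts use an earlier set of gene models, Wm82.a2.v1, so that no coordinates of the table are given. The 3 genes are similar in sequence, and whether a read that fits more than 1 of them was counted is not given in the sources used here. The division of counts among E1, E1La and E1Lb is therefore uncertain, and reads set aside as ambiguous would be missing from their sum as well.

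The 3 genes gave almost no reads at either age. In these bulk leaf samples, few cells with a transcript and little transcript in many cells cannot be told apart. E1 had 0, 0 and 0 raw counts in the 80 DAG libraries, against 1, 2 and 0 raw counts in the 20 DAG libraries. Replicates 1 and 2 of 20 DAG were the only libraries with an E1 read, and replicate 3 of 20 DAG equalled the 80 DAG libraries at 0. E1La had 0, 0 and 1 raw counts in the 80 DAG libraries, against 0, 0 and 0 in the 20 DAG libraries. The single E1La read was in replicate 3 of 80 DAG. E1Lb had 0, 0 and 0 raw counts at 80 DAG, against 1, 0 and 0 at 20 DAG. The values of the ages overlapped for each gene, because every age had at least 1 library at 0.

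**Figure D1:**
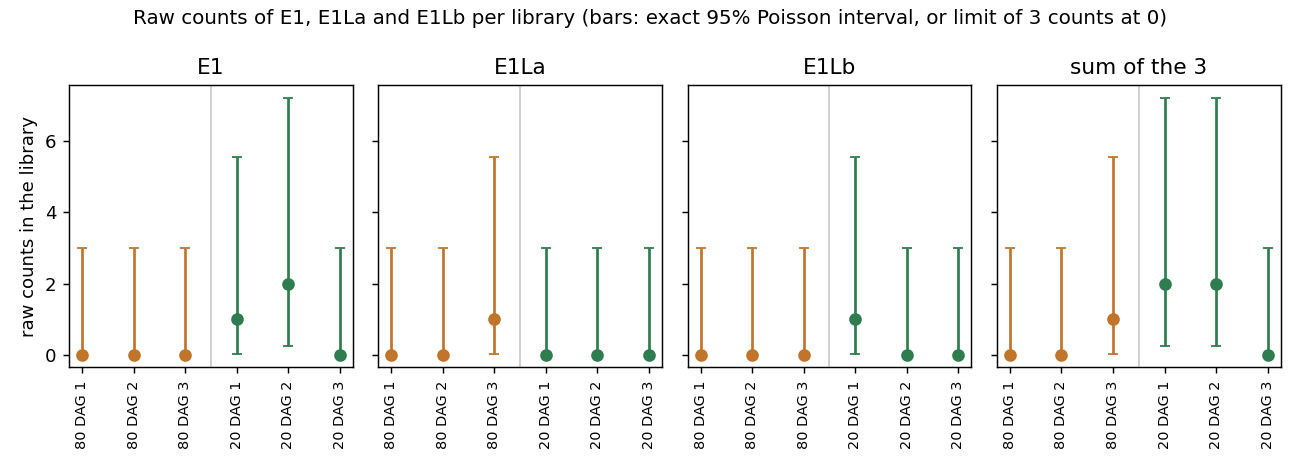
Raw counts (y axis) of E1, E1La, E1Lb and their sum in each library (x axis), 80 DAG in orange and 20 DAG in green. Points are counts, and bars are exact 95% Poisson intervals or, for a count of 0, reach the limit of 3 counts; no gene exceeds 2 counts in a library and all bars overlap.

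These counts come from libraries that held 12353418 to 15883253 counts at 80 DAG and 10758425 to 12184798 counts at 20 DAG. A single read was worth 0.0630 to 0.0930 CPM, the number of counts in 1000000 counts of the library. A count of 0 in a library allows up to 3 counts, which is 0.189 to 0.243 CPM in the 80 DAG libraries and 0.246 to 0.279 CPM in the 20 DAG libraries. These limits and the intervals below cover counting error only. They treat reads as independent molecules, which reads of PCR-amplified libraries are not. Variation between libraries of an age is left out, although over all genes it exceeded sampling noise (chi-square per degree of freedom 7.22 to 45.3). The limits state what a count of 0 allows, and the single reads found in some libraries correspond to levels below them.

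Pooling the libraries of an age narrows the limits, but only for counting error, with variation between libraries still left out. E1 had 0 of 41247731 counts at 80 DAG, which allows up to 0.0727 CPM. At 20 DAG it had 3 of 34843981 counts, or 0.0861 CPM (exact Clopper-Pearson 95% interval 0.0178 to 0.252 CPM). The range allowed at 80 DAG thus overlaps the interval at 20 DAG. E1La had 1 count at 80 DAG, or 0.0242 CPM (Clopper-Pearson 95% interval 0.000614 to 0.135 CPM), and 0 counts at 20 DAG, which allows up to 0.0861 CPM. E1Lb had 0 counts at 80 DAG, which allows up to 0.0727 CPM, and 1 count at 20 DAG, or 0.0287 CPM (Clopper-Pearson 95% interval 0.000727 to 0.160 CPM). The bounds given for 0 counts are 3 counts over the pooled total, not Clopper-Pearson limits. The upper Clopper-Pearson 95% limit was 0.0894 CPM for E1 and E1Lb at 80 DAG and 0.106 CPM for E1La at 20 DAG. For every gene the intervals of the ages overlapped with either bound. Both ages of each gene were at or under the limit of 3 counts, and no fold change is given for this reason.

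**Figure D2:**
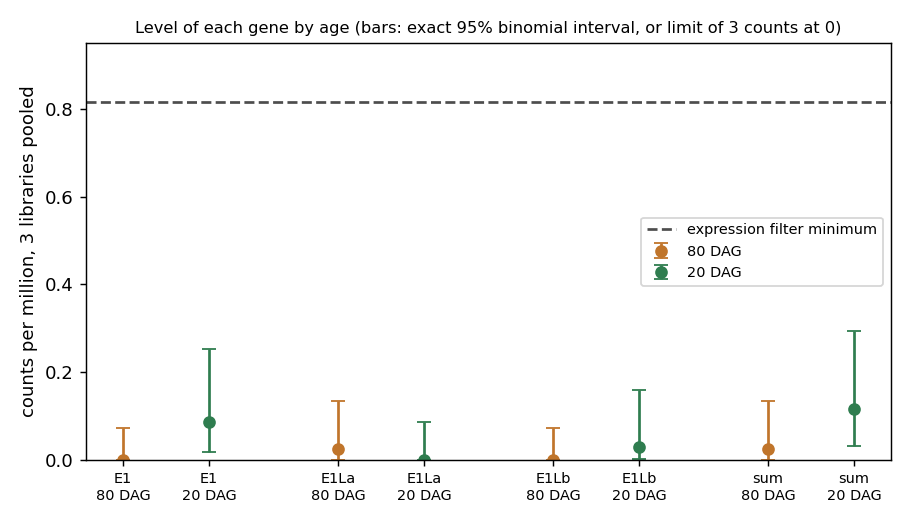
Level of E1, E1La, E1Lb and their sum at 80 DAG (orange) and 20 DAG (green), in CPM of the 3 pooled libraries (y axis). Bars are exact 95% binomial intervals or, for 0 counts, reach the limit of 3 counts; every bar ends below the dashed line at 0.815 CPM, the minimum of the expression filter.

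Averaged over libraries, E1 was at 0.0834 ± 0.0840 CPM at 20 DAG (SD, n = 3), a spread as large as the mean, and at 0 in every 80 DAG library. The mean of E1La was 0.0270 ± 0.0467 CPM at 80 DAG (SD, n = 3), with 0 in every 20 DAG library. The mean of E1Lb was 0.0274 ± 0.0474 CPM at 20 DAG (SD, n = 3), with 0 in every 80 DAG library. In the order of total counts E1 came first with 3, followed by E1La and E1Lb with 1 each. This order is of read numbers, not of levels per length, and neighbours in it do not differ beyond their counting error. The exact permutation test of the difference in mean CPM (two-sided, 3 libraries against 3) gave p = 0.4 for E1, p = 1.0 for E1La and p = 1.0 for E1Lb. The smallest p this design allows is 0.1, but these counts could not reach it. With reads in a single library, as for E1La and E1Lb, every relabelling of the libraries gives the same absolute difference. The p of this test was thus fixed in advance for E1La and E1Lb. For E1, 0.4 was the lowest p that its counts could give. The permutation test therefore could not decide whether the ages differed.

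The sum of the 3 genes, which is the same however the counted reads were divided among them, was 0, 0 and 1 counts in the 80 DAG libraries, against 2, 2 and 0 counts in the 20 DAG libraries. This is 1 count over all 80 DAG libraries, or 0.0242 CPM (Clopper-Pearson 95% interval 0.000614 to 0.135 CPM). At 20 DAG it is 4 counts, or 0.115 CPM (Clopper-Pearson 95% interval 0.0313 to 0.294 CPM). The intervals overlapped, and replicate 3 of 20 DAG was below replicate 3 of 80 DAG. The counted reads of the family thus came to less than 1 CPM at both ages, leaving aside any reads not counted because they matched more than 1 of the genes.

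The edgeR quasi-likelihood test of 80 DAG against 20 DAG could not be applied to any member with the default expression filter. That filter asks for at least 0.815 CPM in 3 libraries, and it kept 30058 genes, none of them an E1 family gene (0 of 3). The lowest total among the genes kept was 31 counts. Of the genes kept, 49.1% were called differentially expressed at a Benjamini-Hochberg adjusted p under 0.05 (23.1% higher and 26.0% lower at 80 DAG). Without the filter, 43718 genes with at least 1 count were tested and 38.5% were called (17.2% higher and 21.3% lower at 80 DAG). Of the 3 members, 0 were called. In this edgeR fit the Benjamini-Hochberg adjusted p was 0.162 for E1, 0.482 for E1La and 0.391 for E1Lb. The number of members with an unadjusted p under 0.05 was 0 with edgeR, 0 with DESeq2 and 1 with limma-voom without the filter. For E1 limma-voom gave an unadjusted p of 0.0287 and an adjusted p of 0.0665, and it called 0 of the 3 members, against 39.4% of the genes it tested. DESeq2 gave no adjusted p for any member, because its own filter on mean counts set them aside. Over the 10 alternatives that gave a value, the adjusted p of E1 ranged from 0.0665 to 0.363, and over 9 alternatives each it ranged from 0.476 to 0.928 for E1La and from 0.276 to 0.547 for E1Lb.

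Whether a gene was called depended on its number of reads. In the edgeR fit without the filter, 4082 genes had 1 to 3 counts in all, the class that holds all 3 members, and 0 of them were called (0%). The share called was 8.18% of the genes with 4 to 9 counts and 30.1% of those with 10 to 29 counts. It reached 51.8% among genes with 1000 or more. The count pattern of E1, with 3 counts at 20 DAG and none at 80 DAG, was shared by 318 genes in total, and 0 of them were called. Among genes with no count at 80 DAG, the lowest 20 DAG total that was called was 6 counts. For the opposite pattern, that of E1La, 905 genes had 1 count at 80 DAG and none at 20 DAG, and 0 were called. The lowest 80 DAG total that was called among genes with no count at 20 DAG was 9 counts. A p above the threshold for E1, E1La or E1Lb thus does not show that their levels at 80 and 20 DAG were alike.

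**Figure D3:**
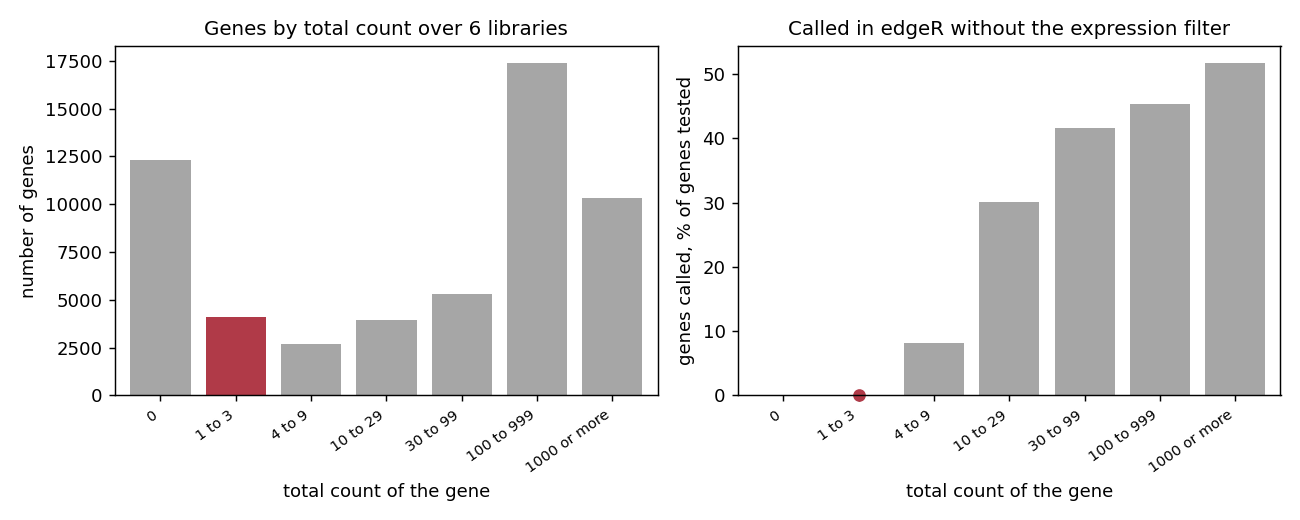
Left, number of genes (y axis) in each class of total count over the 6 libraries (x axis); right, percent of the tested genes in each class that edgeR called without the expression filter. The class of E1, E1La and E1Lb, 1 to 3 counts, is in red and holds 4082 genes, of which 0% were called, against 51.8% of genes with 1000 or more counts.

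Low totals were common in these leaves. In the whole table, 16408 of the 56044 genes (29.3%) had at most 3 counts in all, and 12326 of the 56044 genes (22.0%) had none. E1 had more counts than 27.8% of all genes, and E1La and E1Lb had more than 22.0%. The median total of the genes kept by the filter was 609 counts. Among the 180 GmNAC transcription factor genes inventoried by the study, 48 (26.7%) had at most 3 counts in all, and their median total was 51.5 counts. All 3 members of the E1 family fell in this class.

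The loci next to each member were examined to see whether the surrounding genes had reads. Around E1, 8 of the 20 nearest loci in locus order (40.0%) had no count in any library and 11 (55.0%) had at most 3, with a median total of 3 counts, equal to that of E1. The filter kept 5 of these 20 loci. One of them, 1 locus of 5 against 49.1% of all genes kept, was called, and it was lower at 80 DAG. It was Glyma.06G208100, the third locus after E1, with 40, 26 and 32 counts at 80 DAG, against 61, 81 and 78 counts at 20 DAG (edgeR log2 fold change −1.65, adjusted p = 0.000523). E1 thus stood among loci with few or no reads, interspersed with loci that had more reads.

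The loci around E1La had more reads. Of its 20 nearest loci only 1 (5.0%) had no count and 3 (15%) had at most 3, and their median total was 134.5 counts. The filter kept 14 of the 20 loci, of which 0 were called higher and 6 were called lower at 80 DAG, against 23.1% called higher and 26.0% called lower among all genes kept. The most abundant was Glyma.04G156200, the second locus before E1La, with 1948, 904 and 1139 counts at 80 DAG, against 6874, 7361 and 5648 counts at 20 DAG (edgeR log2 fold change −2.85, adjusted p = 0.000251). E1La itself had 1 read in all 6 libraries, so that reads were nearly absent from the gene while most loci on either side passed the filter.

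The loci around E1Lb had few reads. Of its 20 nearest loci 12 (60.0%) had no count and 13 (65.0%) had at most 3, with a median total of 0 counts. The longest unbroken run of loci without a count in this window was 7 loci. The filter kept 5 of the 20 loci, of which 2 were called higher and 1 lower at 80 DAG, against 23.1% and 26.0% of all genes kept. The tenth locus after E1Lb, Glyma.04G144300, had 405, 99 and 318 counts at 80 DAG, against 8, 25 and 34 counts at 20 DAG (edgeR log2 fold change 3.07, adjusted p = 0.00350). All 3 of its 80 DAG libraries were above all of its 20 DAG libraries, whereas E1Lb had 1 read in all. The table used here gives none of these neighbours a name, and those named were chosen after their values were seen.

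Set against whole chromosomes, the windows around E1 and E1Lb held more loci without reads and that around E1La held fewer. No count was found for 21.9% of the 3258 loci of chromosome 6, where E1 lies, and for 22.2% of the 2574 loci of chromosome 4. The 130 loci between E1Lb and E1La on chromosome 4 were intermediate, with 34.6% at 0. Windows of 20 loci are small, and these shares are a description with no test.

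**Figure D4:**
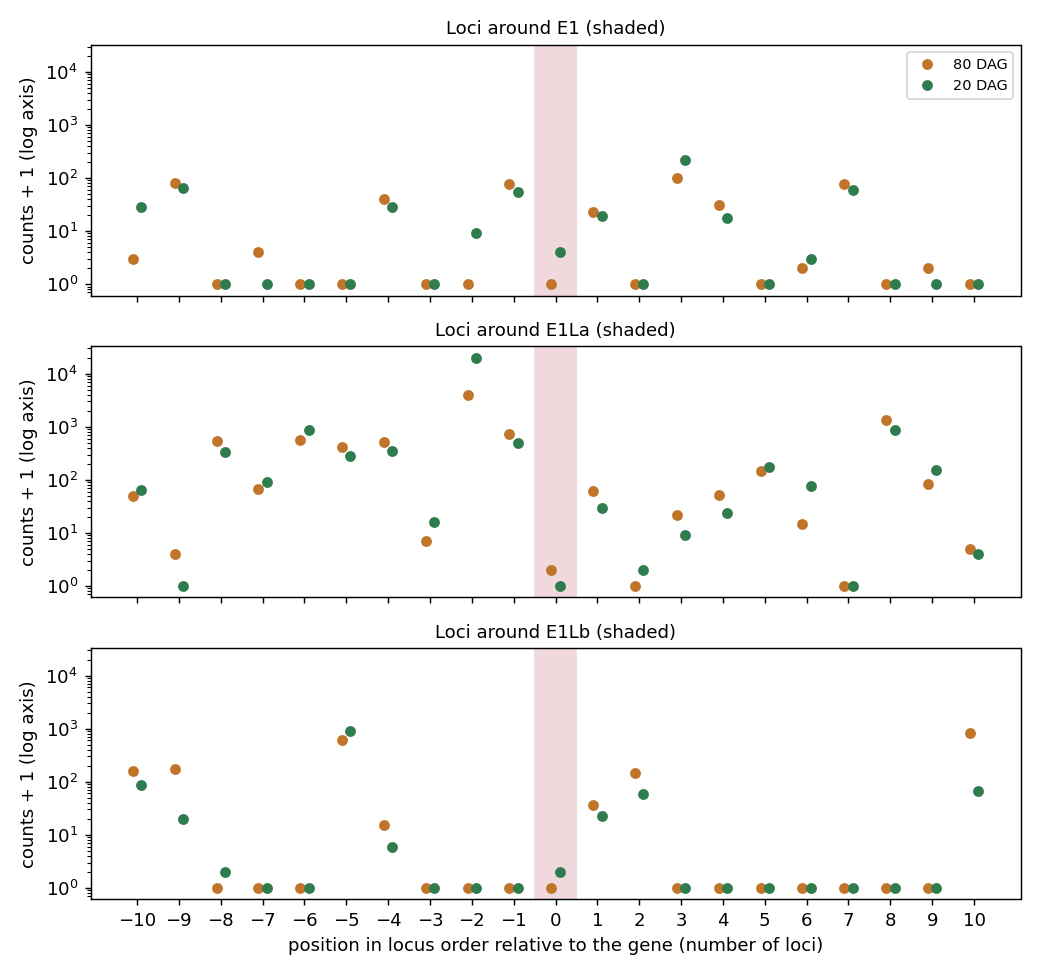
Counts of the 10 loci before and the 10 after E1, E1La and E1Lb in locus order (x axis), summed over 3 libraries at 80 DAG (orange) and 20 DAG (green), plotted as counts + 1 on a log axis so that a locus without reads sits at 1. The members are shaded; E1La is near the bottom between loci with far more counts, while E1Lb has loci at 1 directly before it and a run of 7 such loci from the third locus after it.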

How the data were processed

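Leaf total RNA was depleted of ribosomal RNA, made into stranded libraries and sequenced as paired-end reads. The authors deposited raw counts per gene of the Wm82.a2.v1 models, without normalization. The submitters' processing notes name CASAVA 1.7, Bowtie2 and DESeq2. The counting program, its use of strand and its treatment of reads with several matches are not given in the sources used here. All 6 columns matched a sample title (0 unmapped), and replicates of an age differed by more than sampling noise (chi-square per degree of freedom 7.22 to 45.3).

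All genes were tested with edgeR 4.0.16 (R 4.3.3; TMM, quasi-likelihood F test, Benjamini-Hochberg adjustment, threshold 0.05), with filterByExpr and without a filter. Members were read from the fit without the filter, since the filter removed them. CPM are counts scaled to a library total of 1000000. Intervals were computed with scipy 1.17.1. Neighbours are the 10 loci on each side in locus order. Alternatives were DESeq2 1.42.0, limma-voom (limma 3.58.1), DESeq2 size factors, library size alone, at least 10 counts in every library, an adjusted p under 0.01, a replicate block and each library left out.

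The members and lists were chosen with earlier results of these data known. The genes named are the members and, from the windows around them, 3 loci picked after their values were seen. A list of 37 other photoperiod genes and 9 marker genes of other tissues was not used, nor were leaf markers, because the gene table carries no Glyma identifiers and so pairs none with a name. The leaf label was therefore not checked against markers. Genes with a similar pattern were to be named only for members kept by the filter, of which there were 0. No sequences were used here.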

Additional observations from a re-analysis of the deposited data

How the results depend on the processing

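The number of E1 family genes called was 0 under every alternative that gave a value, and the sign of each gene's fitted difference did not change. The sign could not have come out otherwise, because each gene had reads at 1 age only. In the edgeR fit without the filter, 0 of the 4082 genes with 1 to 3 counts were called. Neither result is therefore a sign of robustness. Leaving out each library in turn, without the filter, gave an adjusted p of 0.163 to 0.359 for E1, 0.486 to 0.601 for E1La and 0.359 to 0.514 for E1Lb. E1La could not be fitted without replicate 3 of 80 DAG, nor E1Lb without replicate 1 of 20 DAG, because no count was left. A minimum of 10 counts in every library left none of the 3 genes. In the fit with a replicate block and no filter, the adjusted p of edgeR's test was 0.363 for E1, 0.652 for E1La and 0.547 for E1Lb. Libraries that share a number did not deviate together (r = −0.238, −0.328 and 0.082 across genes), so the numbers were not taken as pairs. The median log2 fold change of the genes kept was 0.21 when libraries were scaled by their size alone and −0.02 with TMM.

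Over all genes, 14758 were called at 0.05 and 9492 at an adjusted p under 0.01; with the block 11702 were called, and the counts without 1 library lay between 11696 and 14817. The other alternatives were within 1.5 times. With CPM of the effective library size, the mean was 0.0874 for E1 at 20 DAG, 0.0231 for E1La at 80 DAG and 0.0355 for E1Lb at 20 DAG, in place of 0.0834, 0.0270 and 0.0274. The planned comparison of other photoperiod genes was not run. With 1 to 3 reads a gene, a difference between the ages could not be measured, and reads shared among the genes, the hour of sampling and the number of libraries are further limits.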
